A study of Mus musculus with 2 samples.

Results

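The genes described here encode the proteins of the mitochondrial ribosome. They were chosen by symbol, as every listed gene named Mrpl or Mrps followed by a number and, where present, a letter. The rule found 76 of the 23284 listed genes, 47 named for the large subunit (Mrpl) and 29 named for the small subunit (Mrps). All 76 passed the filter on low values, 1 FPKM or more in at least 1 library, which kept 11504 genes. FPKM counts sequenced fragments per kilobase of transcript, scaled to library depth.

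Messenger RNA of small intestinal epithelial cells was sequenced from wild-type mice (miR-215+/+) and from mice lacking the microRNA miR-215 (miR-215-/-). No treatment is named for either group, and the strain, sex and age of the animals, the way the cells were isolated and the number of animals per library are not stated in the labels. With 1 library per genotype, differences could not be checked against replicates and no p-value is given. "Higher" and "lower" always refer to the knockout.

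Mitochondria keep their own ribosomes, which translate the few messengers of the mitochondrial genome into core subunits of the respiratory chain and ATP synthase. The RNA of these ribosomes is made inside the organelle, while every protein is encoded in the nucleus, made in the cytosol and imported. Some of the proteins have a counterpart in bacterial ribosomes and others were added in the lineage leading to mitochondria. The small subunit binds and decodes the messenger, and the large subunit joins amino acids and releases the chain through a tunnel toward the inner membrane.

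Mir215 was listed at 137 FPKM in wild type and at 0 in the knockout, over a gene of 112 nt. Libraries of polyadenylated RNA do not measure the mature microRNA. The summed FPKM were 750631 in wild type and 683884 in the knockout, and 11077 and 11215 genes reached 1 FPKM. The median log2 ratio of all kept genes, computed as log2(knockout FPKM + 1) minus log2(wild-type FPKM + 1), was -0.05. Scaling both libraries to equal sums moved that median to 0.07, a shift of over 0.1, and with it every median below, so medians are given beside that of all kept genes. The 9 epithelial markers summed to 9647 FPKM in wild type and 10324 in the knockout, with 4 log2 ratios above 0, 5 below and a median of -0.03. Epcam was at 1539 and 1400 FPKM, Krt20 at 1721 and 2287, and Cdx2, the lowest of them, at 124 and 64.8. In bulk RNA, fewer cells of a type and less RNA per cell cannot be told apart.

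The microRNA that was deleted and its close relative miR-192, which the gut epithelium also makes, share the seed, the bases 2 to 8 that pair with targets, shown here in capitals. The mature sequences come from RefSeq on GRCm38.p6, at chr1:185313610-185313630 and chr19:6264857-6264877, both on the plus strand.
miR-215-5p: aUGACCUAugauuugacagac
miR-192-5p: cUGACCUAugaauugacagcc
The reverse complement of the seed, TAGGTCA, was looked for in the longest annotated 3′ UTR of each gene. It was present in 5 of the 76 members (6.58%) and in 709 of 10988 kept genes with a 3′ UTR (6.45%). The members' 3′ UTRs had a median length of 326.5 nt, against 1004 nt for the kept genes. The sites are printed to show which members a seed match singles out, with the match in capitals and its first base counted from the start of the 3′ UTR.
Mrpl3, base 1936 of 2743: cacaaaagTAGGTCAccatacta
Mrpl48, base 1387 of 3557: tcatgaacTAGGTCAgtgccaca
Mrpl55, base 192 of 327: ggcccattTAGGTCAgacttttg
Mrps5, base 761 of 2976: gtgtttttTAGGTCAtcagcata
Mrps25, base 4075 of 5497: aaaacaccTAGGTCAacctcatc
Mrps25, base 5021 of 5497: gaccttcaTAGGTCAttcgacaa
A second form of match, AGGTCAA, which shares 6 bases with the first, added 1 member, Mrpl51, at base 863 of 2850.
Mrpl51: agagagcaAGGTCAActgaggca
With either form, 6 members (7.89%) and 1245 kept genes (11.3%) held a match.

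The members with a match were less than 20% lower and less than 25% higher. Mrpl3, a counterpart of bacterial L3 (chr9:105053239-105079888), was at 16.7 FPKM in wild type and 19.2 in the knockout, a fold of 1.15 and a 95% counting interval of 0.989 to 1.33. Counting intervals are made from estimated fragment numbers and cover counting error only. Mrpl48, a protein of the central protuberance (chr7:100545751-100608301), was at 29.9 and 30.7 FPKM, and Mrpl55, of the same site (chr11:59202486-59206134), at 33.5 and 33.3 FPKM. Mrps5 (chr2:127587222-127606829) was at 27.2 and 26.5 FPKM and Mrps25 (chr6:92169525-92184033), with 2 sites, at 11.8 and 11.7 FPKM. Mrpl51 (chr6:125191801-125196269) was at 46.3 and 44.0 FPKM. Their log2 ratios ran from -0.07 to 0.19, and every counting interval included 1. Among all kept genes the median log2 ratio was -0.00 with the first form of match and -0.05 without it. The lengths of genes with and without a match were not compared. For genes outside the family the median went from -0.16 at transcript lengths up to 800 nt to 0.05 above 4500 nt. The part of length in the split by match was not tested.

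On the deposited scale most members were slightly lower in the knockout, and few were far from 1-fold. The median FPKM of the 76 members was 30.5 in wild type and 28.7 in the knockout. Their log2 ratios ran from -0.56 to 0.47 with a median of -0.11, against -0.05 for all kept genes. A log2 ratio below 0 was found for 56 members (73.7%), against 56% of all kept genes. Scaled to equal sums, the members' median was 0.02 beside 0.07 for all kept genes. Then 34 members were below 0 (44.7%, against 40.7% of all kept genes) and 42 above. Thus the side of 0 on which the family lay depended on the scaling. One factor multiplies every knockout value, so this scaling could not show whether the order of the 2 medians holds. With the length trend removed, as described below, the order was reversed, at 0.0033 for members and -0.0020 for all kept genes. With the level trend removed it was not.

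A first rule of size took genes lower by 20% or more, or higher by 25% or more, on the FPKM + 1 scale. By that rule 10 members were lower, where 20.6% of all kept genes were, and 5 were higher, where 14.1% were. The 10 are 13.2% and the 5 are 6.58% of the members, so both shares lay under the background. No member was lower by 1.5-fold (background 7.26%) or higher by 1.5-fold (background 4.83%). None was lower by 2-fold (background 2.04%) or higher by 2-fold (background 1.34%). The 61 members between 20% lower and 25% higher were 80.3% of the family. The share was 65.3% over all kept genes and 68.2% over the 7976 genes in the members' range of mean FPKM. The standard deviation of the members' log2 ratios was 0.22, against 0.49 for those 7976 genes. The fold without the added 1 had a counting interval wholly below 1 for 22 members (28.9%), where 30.2% of 11388 kept genes with a transcript length did. It lay wholly above 1 for 6 members (7.89%), where 19.5% of those genes did. The share below 1 was thus near the background.

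**Figure D1:**
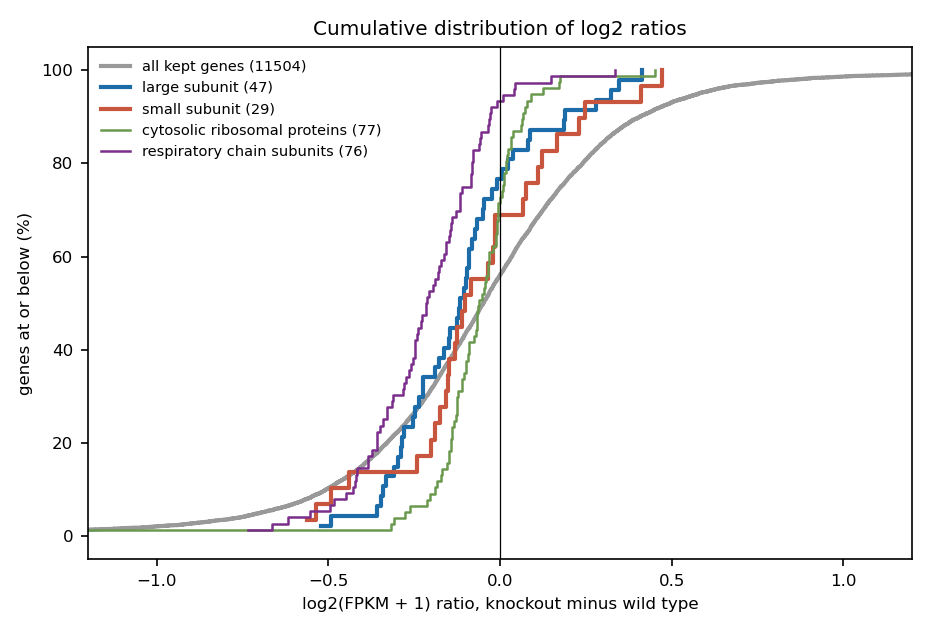
Cumulative share of genes (vertical axis, percent) at or below each log2(FPKM + 1) ratio, knockout minus wild type (horizontal axis), for all 11504 kept genes, the 47 large and 29 small subunit genes by symbol, 77 cytosolic ribosomal protein genes and 76 respiratory chain genes, with 1 library per genotype. The 2 mitochondrial subunit curves rise steeply between -0.56 and 0.47 and the curve of all genes is wider; with equal sums the members' median moved from -0.11 to 0.02.

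The large and small subunits were close to each other. The summed FPKM of the 47 large subunit genes was 2127 in wild type and 1891 in the knockout, a fold of 0.889. That of the 29 small subunit genes was 1161 and 1050, a fold of 0.904. Estimated fragments, summed over genes, gave a fold of 0.916 for the large subunit (95% counting interval 0.898 to 0.934) and 0.911 for the small subunit (0.889 to 0.935), and these intervals overlap. The median log2 ratio was -0.12 for the large and -0.10 for the small subunit, a difference of -0.02. Both medians were above 0, at 0.01 and 0.03, with equal sums.

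A log2 ratio below 0 was found for 36 of 47 large subunit genes (76.6%) and 20 of 29 small subunit genes (69.0%). By the rule of 20% lower or 25% higher, 6 large subunit genes were lower (12.8%) and 3 higher (6.38%). In the small subunit 4 were lower (13.8%) and 2 higher (6.90%), where 20.6% and 14.1% of all kept genes were. The mean FPKM per large subunit gene over that per small subunit gene was 1.13 in wild type and 1.11 in the knockout. That ratio depended on the genes counted. It was 0.94 and 0.927 without the 32 members whose exons overlap another gene, and 1.46 and 1.44 without the 18 that have a near-identical pseudogene.

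A few symbols do not match the place of the protein in the ribosome. Mrps18a and Mrps30 sit in the large subunit, and the protein of Mrps36 is now assigned to the 2-oxoglutarate dehydrogenase complex of the citric acid cycle. Mrps18a was at 26.9 FPKM in wild type and 29.4 in the knockout, Mrps30 at 17.7 and 15.4, and Mrps36 at 117 and 103. Placed by structure, the large subunit had 49 genes with a median log2 ratio of -0.12 and the small subunit 26 genes with a median of -0.09. The relatives of Mrps18a differed in direction, with Mrps18b at 33.3 and 37.4 FPKM and Mrps18c at 86.2 and 80.3.

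Proteins with and without a bacterial counterpart also had like medians. The median log2 ratio was -0.12 for 30 large subunit genes with a counterpart, 25 of them below 0, and -0.10 for 17 without one, 11 of them below 0. In the small subunit it was -0.09 for 16 genes with a counterpart, 11 below 0, and -0.07 for 10 without one, 7 below 0. In the small subunit, 3 of 10 genes without a counterpart (30%) and 1 of 16 with one (6.25%) were lower by 20% or more. In the large subunit 2 of 17 (11.8%) and 4 of 30 (13.3%) were, beside 20.6% of all kept genes.

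**Figure D2:**
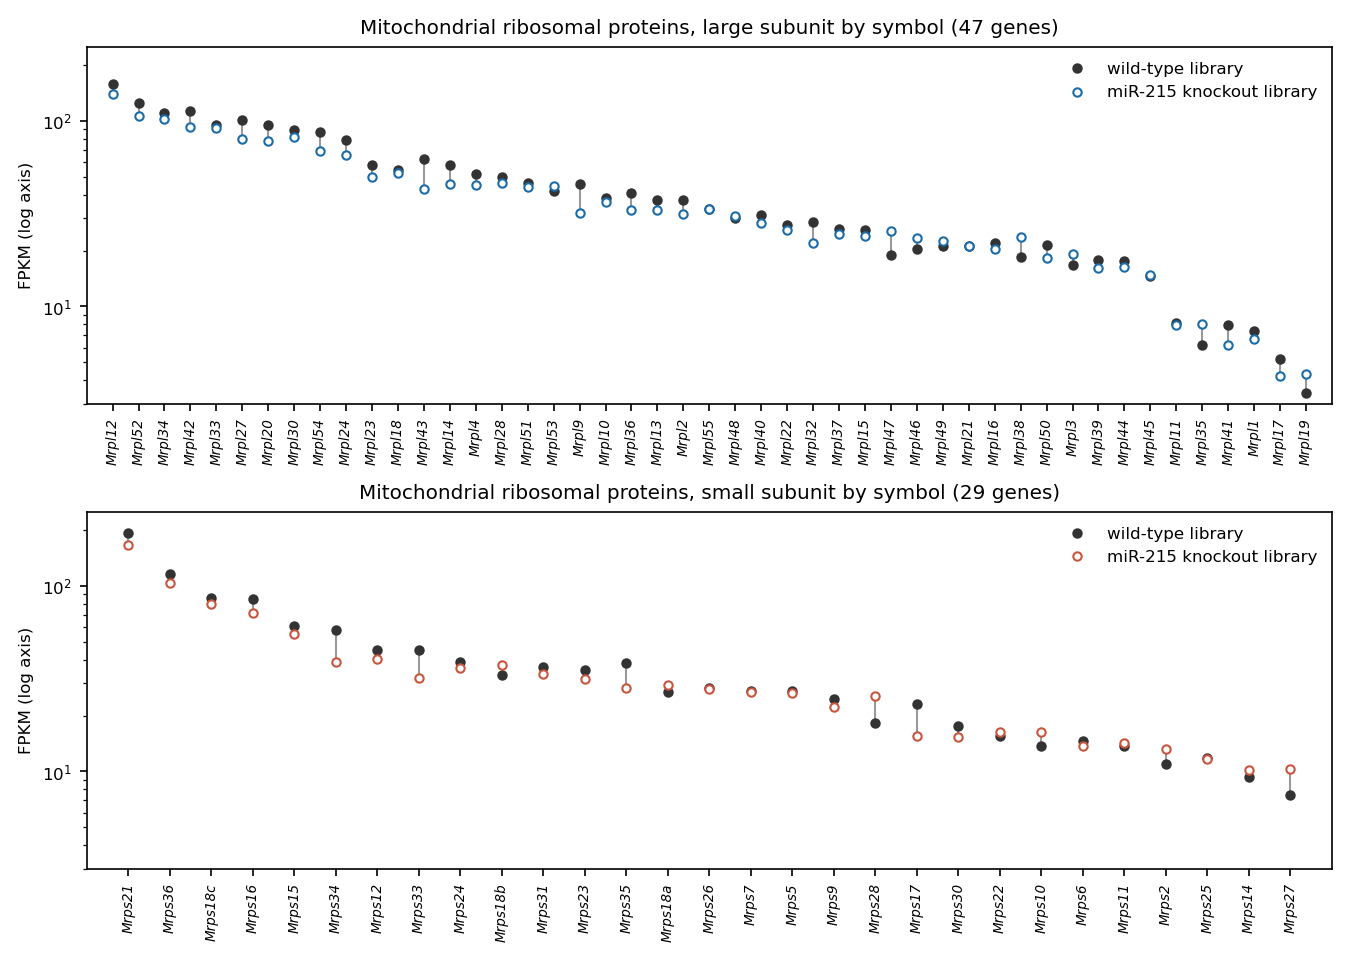
FPKM (log axis) of each large subunit gene (upper panel) and small subunit gene (lower panel) by symbol, in order of mean level, with a filled point for the wild-type library and an open point for the knockout library and 1 library per genotype. Levels span 3.40 to 192 FPKM, and the pair of points of most genes lie close together.

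Levels spread widely within the ribosome although most of its proteins occur in equal numbers. In the wild-type library the members ran from 3.40 to 192 FPKM, a ratio of 56.4, and in the knockout library from 4.24 to 167 FPKM, a ratio of 39.4. Between 10 and 100 FPKM lay 61 members in the wild-type and 65 in the knockout library. The 10 most abundant members took 36.4% of the family's FPKM in wild type, and 9 of them were among the top 10 of the knockout library too. Over the 76 members, log2 FPKM in the libraries had a Pearson correlation of 0.98, as a description of genes that share the same libraries.

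Mrps21, the counterpart of bacterial S21 (chr3:95862634-95871519), was the most abundant, at 192 FPKM in wild type and 167 in the knockout. Mrpl12, which forms the flexible stalk that recruits translation factors (chr11:120484613-120489065), was at 158 and 139 FPKM, a fold of 0.883 and a counting interval of 0.824 to 0.947. Mrpl52, without a bacterial counterpart, was at 125 and 106 FPKM. Mrpl34, the counterpart of L34, was at 110 and 103 FPKM. These abundant members lay below 1-fold on the deposited scale. The folds of Mrps21, Mrpl12, Mrpl52 and Mrpl34 were 0.870, 0.883, 0.847 and 0.934, and equal sums would multiply each by 1.10.

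The least abundant members pointed both ways. Mrpl19, a counterpart of L19, was at 3.40 FPKM in wild type and 4.35 in the knockout, and Mrpl35, a counterpart of L35, at 6.21 and 8.02. Mrpl17, which lies near the tunnel exit, was at 5.22 and 4.24 FPKM, Mrpl1 at 7.39 and 6.69, and Mrpl41 at 7.92 and 6.2. Mrpl41 rested on about 44 and 35 fragments, and its fold of 0.783 had a counting interval of 0.477 to 1.22. At the stalk, Mrpl11 was at 8.13 and 7.98 FPKM and Mrpl10 at 38.4 and 36.6, well under the level of Mrpl12 in both libraries.

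**Figure D3:**
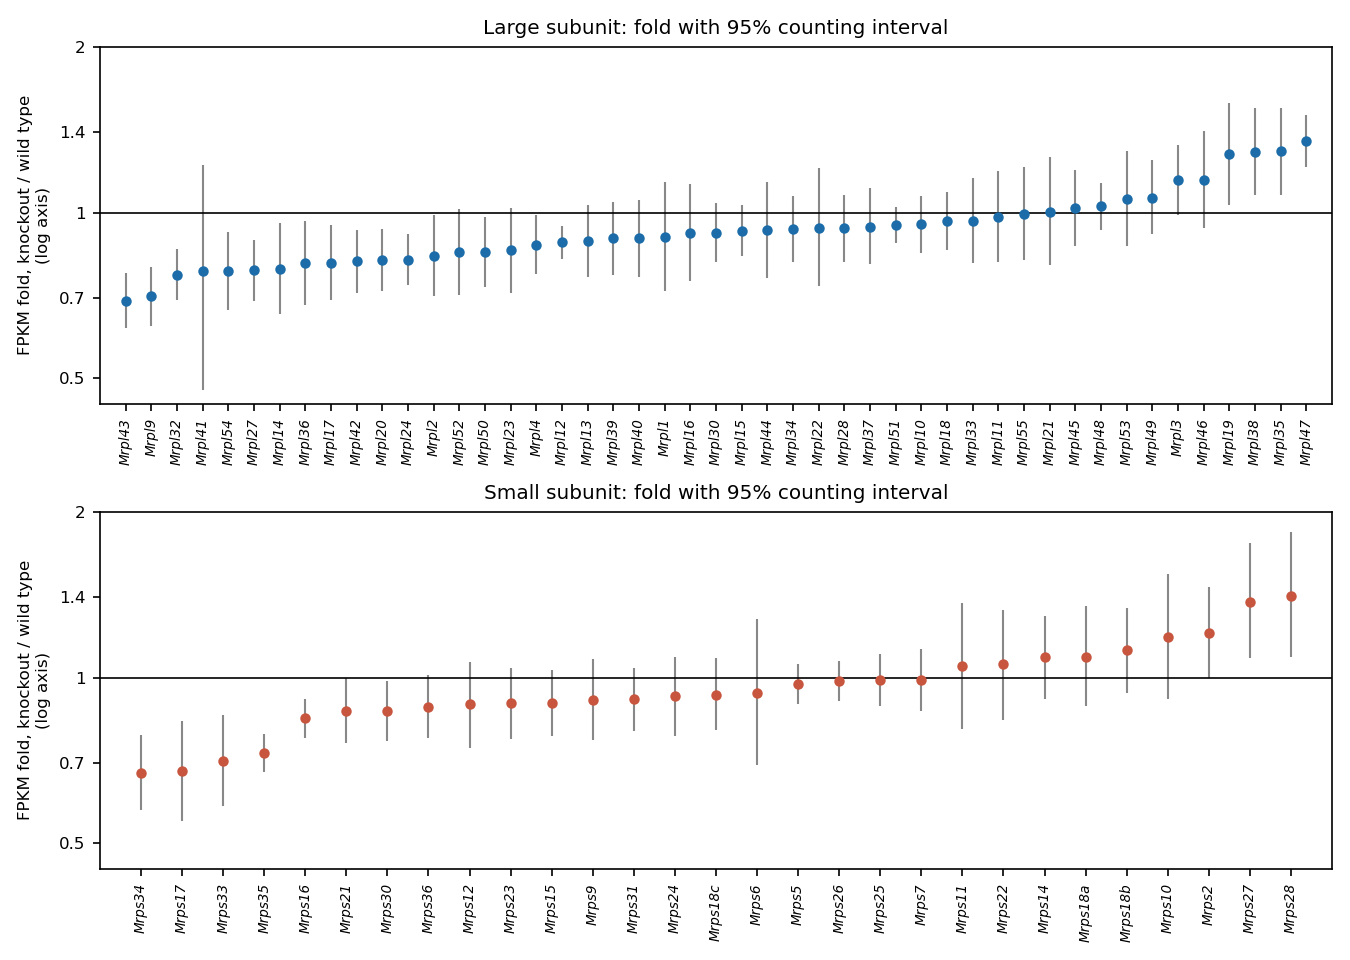
FPKM fold, knockout over wild type (log axis), of each large subunit gene (upper panel) and small subunit gene (lower panel), in order of fold, with bars for the 95% counting interval, which covers counting error only. Bars wholly below 1 belong to 22 of the 76 members (30.2% of all kept genes with a length) and bars wholly above 1 to 6 (19.5%); scaling to equal sums would raise every point by a factor of 1.10.

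The lowest members came from both subunits. Mrps34 (chr17:24895116-24897502), a protein that the small subunit needs for its stability, was at 58.0 FPKM in wild type and 38.9 in the knockout. Its fold was 0.672 and had a counting interval of 0.575 to 0.786. Its exons overlap those of Nme3 on the same strand and Mapk8ip3 on the other. Mrps17, the counterpart of bacterial S17 (chr5:129715497-129722556), was at 23.0 and 15.6 FPKM, a fold of 0.677 (0.548 to 0.834).

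Mrpl43, without a bacterial counterpart (chr19:45004829-45006442), was at 62.1 FPKM in wild type and 43.0 in the knockout, a fold of 0.692 (counting interval 0.617 to 0.777). Mrpl9, the counterpart of L9 (chr3:94443318-94451130), was at 45.5 and 32.1 FPKM, a fold of 0.704 (0.623 to 0.797). Each interval of these 4 genes ended below the median fold of all genes above 0 in both libraries, 0.963. Of all 76 members, 16 had an interval wholly below that median (21.1%, background 25.6%) and 8 wholly above it (10.5%, background 23.7%).

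Mrps33 (chr6:39801804-39810988), a small subunit protein without a bacterial counterpart, was at 45.1 FPKM in wild type and 31.8 in the knockout, a fold of 0.705 (0.584 to 0.856). Mrps35, of the same kind (chr6:147042764-147073991), was at 38.5 and 28.1 FPKM, a fold of 0.730 (0.674 to 0.790). Mrpl32, the counterpart of L32 and a target of a mitochondrial protease (chr13:14608184-14613165), was at 28.6 and 22.1 FPKM, a fold of 0.772 (0.693 to 0.859). The others lower by 20% or more followed. Mrpl54 was at 87.4 and 68.6 FPKM, Mrpl27 at 101 and 79.9, and Mrpl14 at 57.8 and 45.7. Mrps33, Mrpl32 and Mrpl27 each have a near-identical pseudogene, so their reads could be shared. The exons of Mrpl43, Mrpl9, Mrpl27 and Mrpl14 overlap those of Twnk, Oaz3, Eme1 and Tmem63b on the other strand.

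The highest members were also from both subunits. Mrps28 (chr3:8802146-8923918), related to bacterial S1, was at 18.2 FPKM in wild type and 25.6 in the knockout. This is a fold of 1.41 and a counting interval of 1.09 to 1.84, from about 101 and 148 fragments. Mrps27, a pentatricopeptide repeat protein of the small subunit (chr13:99344786-99415562), was at 7.51 and 10.3 FPKM, a fold of 1.37 (1.08 to 1.76).

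Mrpl47 (chr3:32725397-32737605), the counterpart of L29 near the tunnel exit, was at 18.8 FPKM in wild type and 25.4 in the knockout, a fold of 1.35 (1.21 to 1.51). Its exons overlap those of Actl6a and Ndufb5 on the other strand, and whether the counting used strand is not stated in the labels. Mrpl38, of the central protuberance (chr11:116131817-116138868), was at 18.5 and 23.8 FPKM, a fold of 1.29 (1.08 to 1.55). Mrpl35 (chr6:71812997-71826969) had a fold of 1.29 (1.07 to 1.55). Mrpl19, the next in order, had a fold of 1.28 (1.03 to 1.58). Mrps2, the counterpart of S2, followed at 11.0 and 13.2 FPKM, and its interval of 0.997 to 1.46 included 1.

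By functional site, the stalk genes Mrpl10, Mrpl11 and Mrpl12 were all below 0 on the deposited scale, and larger groups were split. Of all members 73.7% were below 0, and of all kept genes 56%. The counting intervals of Mrpl10 (0.845 to 1.07) and Mrpl11 (0.815 to 1.19) included 1. The 6 genes of the tunnel exit had a median log2 ratio of -0.16 and 4 were below 0, with Mrpl24 at 79.3 FPKM in wild type and 65.2 in the knockout at one end and Mrpl47 at the other. The 7 genes of the central protuberance had a median of -0.01, and 4 were below 0. Mrps12, near the decoding centre, was at 45.0 and 40.3 FPKM. Among 8 genes in which human variants cause mitochondrial disease, 5 were below 0 and the median was -0.06. They include Mrps34, Mrps16 at 85.1 and 71.8 FPKM, Mrps22 at 15.5 and 16.4, and Mrps7 at 27.1 and 26.8.

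The log2 ratio varied with the level and the length of the gene. Of the 38 more abundant members 35 were below 0, with a median of -0.18, and of the 38 less abundant 21 were below 0, with a median of -0.02. Of all kept genes 56% were below 0, and the share at like levels is not given here. Other kept genes also had lower medians at higher levels, from 0.03 between 1 and 10 FPKM to -0.18 above 80 FPKM. Pearson's r between the log2 ratio and log2 mean FPKM was -0.43 over the 76 members and -0.13 over 11312 other kept genes. With log2 transcript length it was 0.23 and 0.07. Within the members, length and level had an r of -0.64. These points share the same 2 libraries, and each level enters its own ratio.

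Genes outside the family also varied with level and length. Members' transcripts were short, with a median of 1225 nt against 2701 nt for the kept genes. Between 40 and 80 FPKM the median log2 ratio was -0.21 for 14 members and -0.15 for 1093 other genes. Above 80 FPKM both medians were -0.18, for 11 members and 1336 others. Between 1 and 10 FPKM they were 0.04 for 8 members and 0.03 for 5099 others. Between 10 and 20 FPKM they were -0.01 for 13 members and -0.03 for 2026 others, and between 20 and 40 FPKM -0.09 for 30 and -0.10 for 1584. By length the medians of members and of others differed in both directions. At up to 800 nt they were -0.21 for 16 members and -0.16 for 582 others, and from 800 to 1200 nt -0.09 for 19 and -0.16 for 821. From 1200 to 2000 nt they were -0.14 for 20 members and -0.12 for 2290 others, and from 2000 to 3000 nt 0.03 for 8 and -0.06 for 2710. From 3000 to 4500 nt they were -0.05 for 10 members and -0.01 for 2685 others, and above 4500 nt -0.01 for 3 and 0.05 for 2224. With the length trend of the other kept genes removed, the members' median was 0.00, and 38 members were below 0 and 38 above. With the level trend removed (an alternative added with the data in view) it was -0.00, again with 38 on each side.

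**Figure D4:**
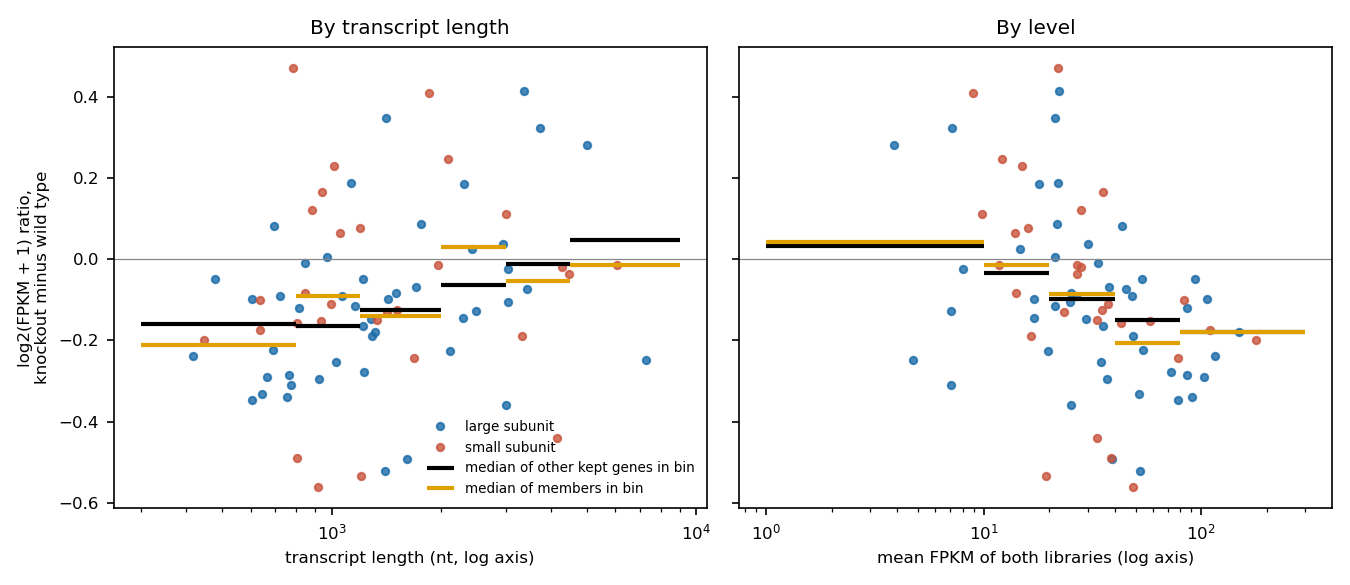
Log2(FPKM + 1) ratio, knockout minus wild type, of the members against transcript length in nt (left, log axis) and mean FPKM of both libraries (right, log axis), with points for genes and bars for medians within bins of other kept genes (black) and members (yellow). The medians of other genes fall with level, from 0.03 at 1 to 10 FPKM to -0.18 above 80 FPKM, and the members' median is lowest, at -0.21, between 40 and 80 FPKM; with equal sums all points would move up.

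Promoters of the members were searched for the core letters of 3 factors known to act on genes of mitochondrial proteins. They were CGCATGCG for nuclear respiratory factor 1, CCGGAAGT for ETS family factors such as GABP, and AAGATGGC for YY1, on both strands. The windows, from RefSeq on GRCm38.p6, span 250 bases before to 50 after the start and were found for 67 members, all but Mrpl4, Mrpl13, Mrpl15, Mrpl19, Mrpl38, Mrpl54, Mrps28, Mrps34 and Mrps35. The first core was in 7 windows (10.4%), against 4.51% of 9051 kept genes and 1.87% of all 32851 windows. The ETS core was in 12 (17.9%), against 9.62% and 3.89%. The YY1 core was in 12 (17.9%), against 5.55% and 2.75%. At least 1 of them was in 29 members (43.3%), against 18.3% and 8.07%, and no hits of different cores overlapped. A match is a description of letters and not a bound site.

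Mrpl32 and Mrps27 were the members whose windows held more than 1 kind of core, and they lay on opposite sides of 1-fold. Their windows are printed 5′ to 3′ on the strand of the gene, with cores in capitals, at chr13:14612988-14613287 on the minus strand and chr13:99344536-99344835 on the plus strand.
Mrpl32: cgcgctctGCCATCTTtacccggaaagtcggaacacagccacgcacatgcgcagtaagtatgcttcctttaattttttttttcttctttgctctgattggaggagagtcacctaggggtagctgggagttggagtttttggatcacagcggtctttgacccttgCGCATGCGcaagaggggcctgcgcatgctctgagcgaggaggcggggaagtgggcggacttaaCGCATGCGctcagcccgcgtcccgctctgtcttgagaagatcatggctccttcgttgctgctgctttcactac
Mrps27: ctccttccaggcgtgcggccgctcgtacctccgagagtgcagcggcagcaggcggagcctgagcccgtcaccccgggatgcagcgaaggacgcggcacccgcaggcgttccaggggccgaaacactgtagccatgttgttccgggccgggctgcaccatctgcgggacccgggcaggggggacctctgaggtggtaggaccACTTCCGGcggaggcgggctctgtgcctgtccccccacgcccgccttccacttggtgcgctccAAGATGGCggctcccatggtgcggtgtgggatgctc
Counted from the gene start, with bases before it negative, the first core of Mrpl32 begins at -86 and again at -23, and its YY1 core, read on the other strand, at -242. In Mrps27 the ETS core, on the other strand, begins at -49 and the YY1 core at 15. Mrpl32 was at 28.6 FPKM in wild type and 22.1 in the knockout, and Mrps27 at 7.51 and 10.3. The windows of the most abundant member of each subunit, Mrpl12 and Mrps21, held none of the 3 cores. The median log2 ratio was -0.07 for the 29 members with a core and -0.13 for the 38 without. Single cores differed in direction. For the first core the median was -0.14 with it and -0.10 without, for the ETS core -0.05 and -0.12, and for the YY1 core -0.05 and -0.12.

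Many members have a start near that of another gene read the other way. A protein-coding start on the opposite strand within 1000 nt was found for 32 members (42.1%), against 1853 of 11020 kept protein-coding genes (16.8%). The rule counted starts on either side, so genes that overlap at their starts are included. Mrpl46 and Mrps11, of different subunits, form such a pair with starts 412 nt apart, and their exons overlap. Mrpl46 was at 20.4 FPKM in wild type and 23.3 in the knockout, and Mrps11 at 13.6 and 14.3.

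Among 26 pairs with both genes kept, 9 had both log2 ratios below 0, 1 had both above, and 16 (61.5%) lay on opposite sides. Of all 767 such pairs of kept genes 46.3% did. With equal sums the shares were 53.8% and 42.6%, and the difference was not tested. Mrpl36 was at 40.9 and 33.2 FPKM in the wild-type and knockout libraries, and its partner Ndufs6, a subunit of complex I whose start is 29 nt away, at 255 and 197. Mrpl49, at 21.1 and 22.5 FPKM, faces Fau, which encodes a cytosolic ribosomal protein fused to a ubiquitin-like protein, at 1387 and 1054 FPKM. Mrpl47 is paired with Ndufb5, another complex I subunit, at 163 and 146 FPKM. Exons of Mrpl47 overlap those of Ndufb5, and exons of Mrpl36 those of Ndufs6, so reads could be shared if the counting ignored strand. Members with a partner and members without both had a median log2 ratio of -0.11.

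The other genes of mitochondrial translation did not all share the members' small negative median. The 7 ribosomal proteins with other names had a median of -0.12, with the small subunit proteins Aurkaip1 at 64.6 FPKM in wild type and 47.1 in the knockout and Chchd1 at 36.8 and 46.0. For 24 genes that assemble or modify the ribosome it was -0.08. Trub2, a pseudouridine synthase family protein, was at 15.7 and 10.1 FPKM, Mettl17, a methyltransferase-like protein of small subunit assembly, at 8.34 and 12.9, and Fastkd2, an RNA-binding protein needed for the large subunit, at 3.52 and 5.70. In that list 4 genes were lower by 20% or more (16.7%, background 20.6%) and 3 higher by 25% or more (12.5%, background 14.1%).

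The 15 translation factors had a median log2 ratio of 0.12, and 10 were above 0. Tufm, the elongation factor that delivers aminoacyl-tRNA, was at 76.5 FPKM in wild type and 93.8 in the knockout, a fold of 1.23 (counting interval 1.13 to 1.33). Mtif3, an initiation factor, was at 9.16 and 6.57 FPKM, and Oxa1l, which inserts new chains into the inner membrane, at 31.5 and 25.8. The 15 genes of mitochondrial transcription and RNA processing had a median of 0.08. Hsd17b10, a subunit of mitochondrial RNase P, was at 55.3 and 44.3 FPKM and Pnpt1, a ribonuclease, at 9.20 and 12.1. In the same list Grsf1 was at 29.7 and 22.3 FPKM and Rg9mtd1 at 5.39 and 7.30. The 17 mitochondrial tRNA synthetases had a median of -0.01, with 8 above 0 and 9 below. Lars2, the most abundant, was at 1080 FPKM in wild type and 792 in the knockout, a fold of 0.733 (0.722 to 0.745). Pars2 was at 2.34 and 1.27 FPKM and Sars2 at 4.22 and 5.69.

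Regulators of mitochondrial genes were split. Of 10 genes 5 were above 0 and 5 below, and the median log2 ratio was -0.00. Esrra, a nuclear receptor that drives oxidative genes, was at 169 FPKM in wild type and 131 in the knockout, a fold of 0.771 (0.733 to 0.812). Pprc1, a coactivator of the PGC-1 family, was at 2.16 and 4.39 FPKM, a fold of 2.04 (1.61 to 2.60), and Myc, a transcription factor of growth, at 5.06 and 7.31. Among the factors whose cores were searched, Gabpa was at 12.1 and 9.80 FPKM, Nrf1 at 8.49 and 7.30, and Yy1 at 29.8 and 24.9.

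**Figure D5:**
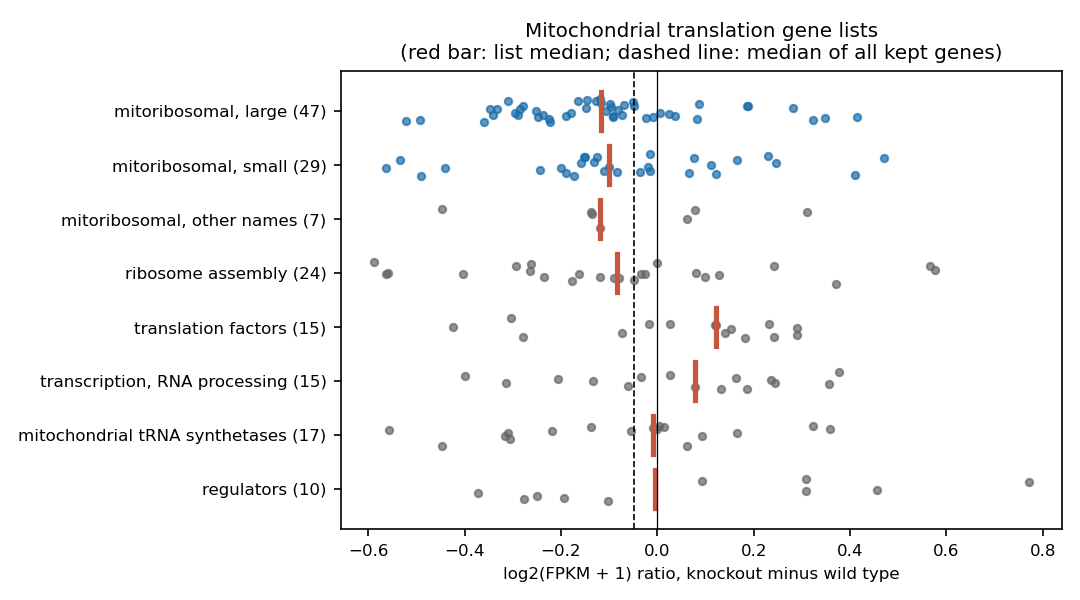
Log2(FPKM + 1) ratio, knockout minus wild type (horizontal axis), of each gene in the mitoribosomal groups (blue) and in other lists of mitochondrial translation (grey), with the number of kept genes in brackets, a red bar at each list's median and a dashed line at the median of all kept genes, -0.05. The medians run from -0.12 to 0.12; with equal sums all points move up and all 8 medians are above 0.

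Beside 2 other gene sets, the cytosolic ribosome and the respiratory chain, the members had an intermediate median log2 ratio. The 77 kept genes of cytosolic ribosomal proteins had a median log2 ratio of -0.06, with 56 below 0 (72.7%, against 56% of all kept genes). By the first rule of size, 1 of them was lower and 1 higher (1.30% each), where 20.6% and 14.1% of all kept genes were. The lower gene was Rps27, at 93.7 FPKM in wild type and 12.6 in the knockout, a fold of 0.135. The higher gene was Rpl29, at 270 and 370 FPKM. The 76 kept genes of nuclear-encoded respiratory chain subunits had a median of -0.21, with 71 below 0 (93.4%). Of these 76 genes, 21 were lower by 20% or more (27.6%, background 20.6%). Sdhc, of complex II, was at 295 FPKM in wild type and 177 in the knockout, and Ndufa6, of complex I, at 582 and 367. With equal sums these medians were 0.07 and -0.08, beside 0.02 for the members. The difference between lists was not tested. Respiratory chain transcripts had a median length of 807 nt and cytosolic ribosomal protein transcripts 791 nt, both shorter than the members'. Levels differed too. Over the listed genes of each set, the median wild-type FPKM was 322 for the respiratory chain, 490 for the cytosolic ribosome and 30.5 for the members.

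Markers of several cell types differed between the libraries beside these values. All 7 enterocyte markers were below 0, with a median log2 ratio of -0.19 and a summed level of 61588 FPKM in wild type and 54009 in the knockout. All 9 markers of proliferating crypt cells were above 0, with a median of 0.56 and sums of 137 and 168 FPKM. All 10 kept of 12 fibroblast and smooth muscle markers were above 0, with a median of 1.23 and sums over the 12 of 18.5 and 55.5 FPKM. Of 11 myeloid markers 10 were above 0, with a median of 0.52 and sums of 82.4 and 107 FPKM. T cell markers summed to 377 and 395 FPKM (5 of 8 above 0), B and plasma cell markers to 59.1 and 89.0 (1 of 5 above 0), and endothelial markers to 1.38 and 5.98, with 2 of 5 kept. Among these lists only the endothelial Kdr was at 0 FPKM, in wild type. The part of these cell types in the members' values was not tested.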

How the data were processed

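Polyadenylated RNA of small intestinal epithelial cells was sequenced, with 1 library for each of 2 genotypes, wild-type and miR-215-/-. Per the labels' protocols, RNA was extracted with an RNeasy kit and libraries were made with a stranded TruSeq kit. The authors deposited 1 FPKM value per gene and library. The unit is not named in the file headers and was inferred from the values and from the tools in the submitters' processing notes, Cuffnorm 2.2.1, TopHat2 2.0.13, SAMtools 0.1.19 and Bowtie2 2.2.3, with build mm10. The role of each tool, its settings, the annotation and the scaling are not given in the sources used.

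The members, gene lists and rules were chosen with earlier results of these data known. Log2 ratios used a pseudocount of 1, which understates differences of low genes, and genes below 1 FPKM in both libraries were left out. The thresholds (25% higher or 20% lower, 1.5-fold and 2-fold) are rules of size. No test was possible with 1 library per genotype. Named members were the 6 highest and 6 lowest log2 ratios at 5 FPKM or more, the 5 most and 5 least abundant, the Mrps18 family, those placed elsewhere by structure, those with a seed match and those of the listed functional sites. Some named members are given only by their group's counts.

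Counts were not used. Depth was read from steps between low FPKM values, after subtracting 200 nt from each transcript length. The fragment over 1 kb was then worth 0.1045 FPKM in wild type, and 68.3% of low values of 356 single-transcript genes lay within 0.05 of a whole number of fragments, up to 3. The knockout worth was 0.963 times that, the commonest ratio among low genes (246 of 602). Members rested on about 35 to 1685 fragments per library. The 95% intervals of folds are exact Clopper-Pearson intervals from rounded fragments, assume the transcript length and cover counting error only. Lengths, positions and 3′ UTRs came from GENCODE M21 on GRCm38, matched to 22826 of 23284 symbols. Near-identical pseudogenes were found with blastn 2.17.0 at 95% identity or more over at least 200 nt. Length and level trends were lowess fits over the other kept genes with a fraction of 0.3 (statsmodels 0.14.6). The fit of fragment worth, the log2 ratios and the interval formula were checked on simulated data. The simulated intervals used true fragment numbers and worth, so errors in estimating fragments were not part of that check.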

Additional observations from a re-analysis of the deposited data

How the results depend on the processing

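Members' directions depended on scaling and on trends with level and length. The median log2 ratios of all members, the large and the small subunit were -0.11, -0.12 and -0.10 as deposited. They were 0.022, 0.013 and 0.032 with equal sums, -0.0068, -0.016 and 0.0026 with equal upper quartiles and -0.060, -0.068 and -0.052 centred on all genes. With the length trend removed they were 0.0033, -0.010 and 0.0079, and with the level trend removed -0.00014, -0.019 and 0.0088. The median of all kept genes moved from -0.048 to 0.074 with equal sums and to 0.046 with equal upper quartiles, by the scaling itself, and was 0.0035 with the level trend removed. Members lower by 20% or more numbered 5, 6, 6 and 6 with equal sums, equal upper quartiles, centring and the level trend removed, and members higher by 25% or more numbered 8, 8 and 9 with equal sums, equal upper quartiles and the length trend removed. With a pseudocount of 5, 2 were higher. Shares of all kept genes past these limits are given for the deposited scale only, so these counts are not set against a background. One member, Mrps28, was higher by 1.5-fold with equal sums (log2 ratio 0.60) and with the length trend removed (0.64). The summed fold was 0.982 with equal sums and 0.962 with equal upper quartiles. Without the 32 exon-overlapping members the medians were -0.14 overall and -0.14 for the small subunit, with 5 lower and 3 higher, and the large to small ratio was 0.94 and 0.927, from fewer genes. Without the 18 members with near-identical copies that ratio was 1.46 and 1.44.

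The medians of the other lists moved too. In the order other ribosomal proteins, assembly, translation factors, RNA processing, regulators, tRNA synthetases, cytosolic ribosome and respiratory chain, they were 0.0043, 0.030, 0.25, 0.18, 0.12, 0.090, 0.070 and -0.081 with equal sums, and -0.023, 0.0046, 0.22, 0.16, 0.088, 0.070, 0.040 and -0.11 with equal upper quartiles. Centring gave 0.040, -0.013 and -0.17 for the last 3. Removing the length trend gave -0.0025 for assembly and -0.036, 0.097 and -0.068 for the last 3. The cause of these shifts was not tested. Some settings changed little: a pseudocount of 0.1, no filter, a minimum of 5 FPKM, at least 50 fragments and subunits by structure. Under these the members' medians moved by less than their counting error, and their counts by no more than 1.5 times. The summed fold, where computed, stayed at 0.89. The large to small ratio was 1.15 and 1.13 with a minimum of 5 FPKM and 1.15 and 1.14 by structure, from a changed set of genes. The list medians were not computed under these settings. The median of all kept genes was -0.053, -0.0074 and -0.083 under the first 3. No paired analysis was possible because each genotype has 1 library. Depth limits single members most: Mrpl41 rested on about 44 and 35 fragments.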
